A study of Mus musculus with 12 samples.

Results

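Erythroid genes were followed in libraries that were prepared as monocytes. The 8 genes chosen by symbol were the adult haemoglobin genes Hba-a1, Hba-a2, Hbb-bs and Hbb-bt and the non-globin erythroid genes Alas2, Slc4a1, Car2 and Klf1. All 8 were found, among 52553 genes and unmatched RefSeq accessions in all, and all 8 passed the filter on low counts, which kept 20135 features. The cells came from the spleen or the peripheral blood of male C57BL/6 mice and were sorted magnetically for CD115, the surface receptor encoded by Csf1r. Mice were intact or had lost 70% of the liver mass 24 h earlier (PH), and every group kept its spleen. There were 3 RNA-seq libraries in each of the 4 groups, giving 12, and each library pooled the cells of 5 mice and so averages its animals. Splenic cells were dissociated with collagenase and had their red blood cells lysed before a Ficoll gradient, whereas the methods for blood name the Ficoll gradient only. Tissue and lysis step therefore cannot be told apart in any comparison of blood with spleen, and a smaller number of erythroid cells cannot be told apart from less RNA per cell in any comparison.

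Red blood cells are made from nucleated erythroblasts, which in the mouse also mature in the red pulp of the spleen, and this splenic production can expand under stress. Erythroblasts divide, take up iron through the transferrin receptor and switch on haemoglobin under transcription factors such as Gata1 and Klf1. The nucleus is then expelled, and the reticulocyte that enters the blood transcribes no more genes but carries remaining messages, among them those for globin and for Alas2, the erythroid enzyme of the first step of haem synthesis. Slc4a1 encodes the anion exchanger of the red cell membrane, Car2 a carbonic anhydrase of the red cell cytosol that other cell types also express, and Klf1 the erythroid factor that activates adult beta globin.

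The 250 bases before the gene start are shown for 5 of the genes, because the haemoglobin genes and Alas2 shared an order of groups, with blood above spleen, and Klf1 had the reverse. The sequences are from RefSeq on build GRCm38.p6, and the counts were made on another build, so only the letters are used. Capitals mark matches on either strand to GATAA, to CCNCNCCC (the letters of a Klf-type CACC box) or to CCAAT, and neighbouring matches can overlap.
Hba-a1, chr11:32283422-32283671, plus strand: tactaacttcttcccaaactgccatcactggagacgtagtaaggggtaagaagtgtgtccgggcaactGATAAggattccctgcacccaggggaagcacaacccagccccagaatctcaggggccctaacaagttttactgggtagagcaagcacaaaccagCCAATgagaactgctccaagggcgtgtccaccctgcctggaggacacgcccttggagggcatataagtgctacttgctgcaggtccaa
Hbb-bs, chr7:103827929-103828178, minus strand: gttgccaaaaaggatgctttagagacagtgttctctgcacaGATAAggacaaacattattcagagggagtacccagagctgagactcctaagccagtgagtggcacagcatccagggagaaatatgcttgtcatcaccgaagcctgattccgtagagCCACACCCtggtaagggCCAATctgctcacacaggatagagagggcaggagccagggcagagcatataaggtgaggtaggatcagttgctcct
Hbb-bt, chr7:103813924-103814173, minus strand: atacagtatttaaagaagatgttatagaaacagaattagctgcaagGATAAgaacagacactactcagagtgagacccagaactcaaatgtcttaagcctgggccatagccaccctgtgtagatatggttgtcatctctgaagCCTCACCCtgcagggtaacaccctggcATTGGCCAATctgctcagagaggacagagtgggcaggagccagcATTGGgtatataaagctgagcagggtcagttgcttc
Alas2, chrX:150547167-150547416, plus strand: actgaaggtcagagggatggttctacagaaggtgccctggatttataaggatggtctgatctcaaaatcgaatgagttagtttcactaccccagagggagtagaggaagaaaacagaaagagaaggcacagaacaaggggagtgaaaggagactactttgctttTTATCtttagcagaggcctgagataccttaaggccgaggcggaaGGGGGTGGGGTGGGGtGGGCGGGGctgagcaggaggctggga
Klf1, chr8:84901732-84901981, plus strand: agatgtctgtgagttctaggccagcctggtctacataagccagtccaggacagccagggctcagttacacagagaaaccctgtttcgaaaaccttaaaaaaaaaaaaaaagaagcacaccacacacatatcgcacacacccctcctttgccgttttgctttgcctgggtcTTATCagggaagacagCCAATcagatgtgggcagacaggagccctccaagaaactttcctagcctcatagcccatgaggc

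Each of the 5 windows held 1 match to GATAA, which was present in 22.6% of 32851 windows of the same length. The Klf-type letters were found once in Hbb-bs (CCACACCC, 93 bases before the gene start), once in Hbb-bt (CCTCACCC, 107 bases before it) and as 4 closely spaced, partly overlapping matches on the opposite strand in Alas2, against 45.9% of all windows. CCAAT occurred once in Hba-a1, Hbb-bs and Klf1 and 3 times in Hbb-bt, against 33.8% of all windows. Hba-a2 shared a run of 247 bases with Hba-a1 and is not shown. A match is a description of letters only, and Slc4a1 and Car2 had no entry in the promoter table.

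The paralogs are alike in the transcribed part as well. Of all 100-base windows of the longest Hba-a1 transcript 56.5% occurred unchanged in Hba-a2, and 62.6% of those of Hbb-bs occurred in Hbb-bt, so the split of reads within the alpha or beta pair is uncertain. Hba-a1 held 58.7% to 68.4% of the alpha counts and Hbb-bs 81.6% to 86.7% of the beta counts in every library. The ratio of alpha to beta counts ranged from 1.14 to 1.41 over the 12 libraries.

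Library totals ran from 36990033 to 46401368 estimated counts. Csf1r, which encodes the sorted antigen, stood between 209 and 1192 CPM (counts relative to the TMM-scaled library size) in all libraries. Some libraries stood apart within their group and are named here because results below rest on them. Intact blood replicate 3 had 598 CPM of Mki67, a gene of dividing cells, against 42.8 and 32.5 CPM in the other 2 libraries. Spleen PH replicate 2 and intact spleen replicate 3 had the highest level of every one of the 8 erythroid genes within their groups.

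The 4 haemoglobin genes together took 0.1003%, 0.0814% and 0.363% of gene counts in intact spleen and 0.795%, 3.47% and 0.875% in spleen after resection. In blood they took 33.1%, 25.6% and 13.2% in intact mice and 29.4%, 34.2% and 16.6% after resection. The lowest blood library was thus above the highest splenic library, the splenic groups did not overlap each other, and the blood groups did. Between the lowest and the highest library the share differed by a factor of 420.

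**Figure D1:**
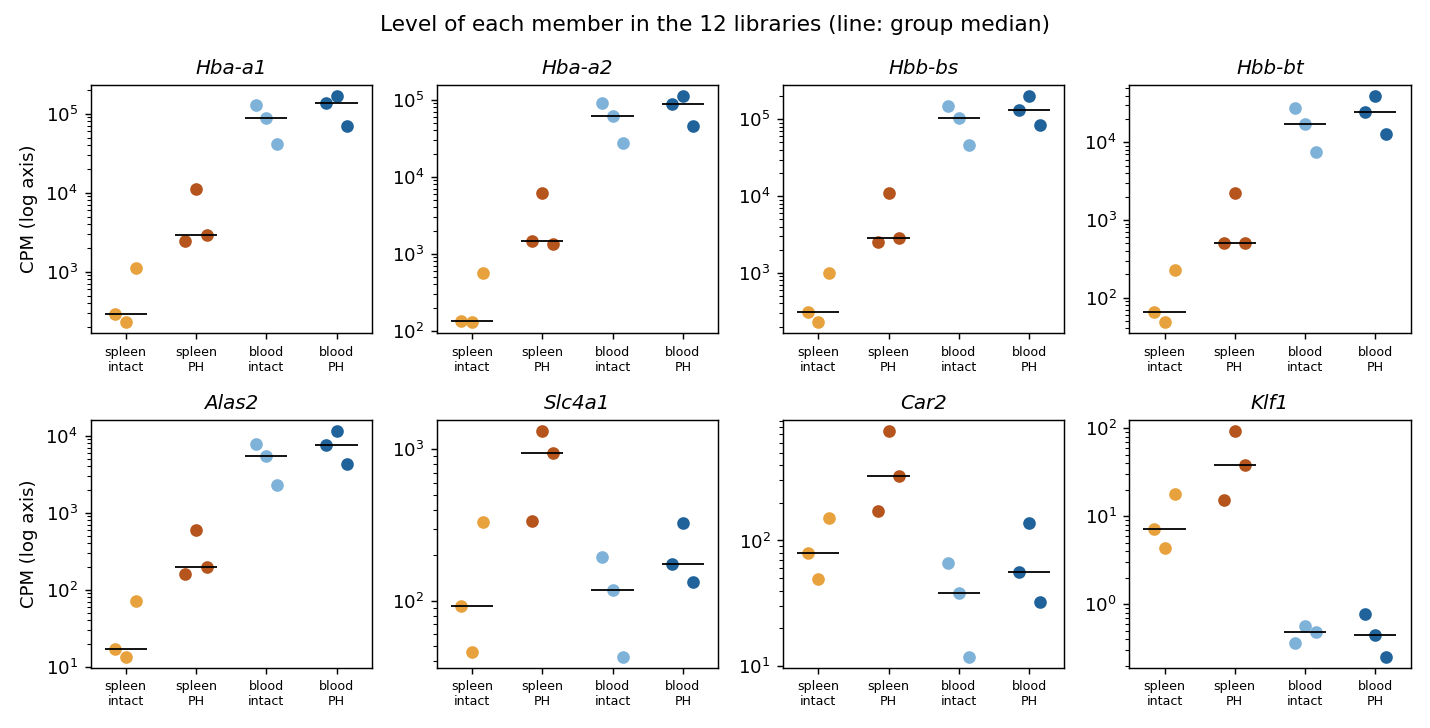
Level of each of the 8 erythroid genes in CPM (log axis) in the 3 libraries of each group, with points for replicates 1 to 3 from left to right and a line at the group median. Haemoglobin genes and Alas2 are highest in blood, Klf1 is lowest in blood, and in spleen all PH points lie above all intact points for 7 of the 8 genes, Klf1 being the exception. Of all features 17.4% are placed so, and for Slc4a1 the nearest points are 333 (intact) and 337 CPM (PH).

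Among the alpha chains, Hba-a1 had 289, 233 and 1131 CPM in the intact and 2469.9, 11231 and 2933 CPM in the PH libraries of spleen. In blood it reached 128829, 88534 and 40868 CPM in the intact and 135111, 166576 and 70099 CPM in the PH libraries. Hba-a2 followed the same order of groups, from 131 CPM in the lowest library of intact spleen to 111324 CPM in the highest library of blood after resection. Of the beta chains, Hbb-bs stood at 309, 231 and 996 CPM in the intact and 2539, 11029 and 2890.3 CPM in the PH libraries of spleen. Its blood levels were 149901, 104843 and 45711 CPM intact and 132788, 200369 and 84300.1 CPM after PH. Hbb-bt, the minor adult beta gene, ranged from 48.8 to 39328 CPM. All 4 chains showed the same picture, with blood far above spleen and overlap between the states only in blood.

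Alas2 behaved like the chains. Its splenic level was 17.2, 13.6 and 71.1 CPM intact and 162, 594 and 198 CPM after PH, and its blood level 7831, 5452 and 2315 CPM intact and 7635, 11535 and 4324 CPM after PH. For Slc4a1 the splenic values were 92.5, 46.3 and 333 CPM intact and 337, 1321 and 942 CPM after PH, and those of blood 195, 117 and 42.9 CPM intact and 175, 329 and 133 CPM after PH. Its intact tissues overlapped, and spleen after resection lay above all other groups. Car2 in spleen was at 79.5, 49.6 and 152 CPM intact and 170.3, 743 and 325 CPM after PH, and in blood at 66.3, 38.2 and 11.9 CPM intact and 56.7, 137 and 32.2 CPM after PH. The splenic groups of Car2 did not overlap. Klf1 in spleen was at 7.24, 4.32 and 17.8 CPM intact and 15.3, 93.6 and 38.2 CPM after PH, whereas all 6 blood libraries lay between 0.253 and 0.763 CPM, on 9 to 25 counts each.

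Divided by transcript length, the order of the genes differed between tissues. In intact blood the mean level per kilobase was 159478 CPM for Hbb-bs, 123143 for Hba-a1, 108292 for Hba-a2 and 24724 for Hbb-bt, followed by 2552 for Alas2, 26.1 for Slc4a1, 21.7 for Car2 and 0.306 for Klf1. In intact spleen the chains were again highest, from 160.4 CPM per kilobase for Hbb-bt to 815 for Hbb-bs, but Car2 (52.4 ± 29.5, SD, n = 3) and Slc4a1 (34.6 ± 33.9) came next, ahead of Alas2 (16.7 ± 15.8) and Klf1 (6.39 ± 4.62). The ranges of neighbours from Car2 to Klf1 overlapped between libraries, but the 4 genes rose and fell together. Replicate 2, the lowest for each, had 27.8, 10.2, 6.66 and 2.82 CPM per kilobase, in the order given. Replicate 3, the highest for each, had 85.0, 73.4, 34.9 and 11.6, so both kept that order. In intact blood the ranges of Alas2 and Slc4a1 did not overlap. The lowest Alas2 value there was 1136 and the highest Slc4a1 value 42.9 CPM per kilobase.

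Set beside haemoglobin, the non-globin genes split into 2 kinds. For each 10000 haemoglobin counts there were 194 to 258 counts of Alas2 in the 6 splenic libraries and 190 to 223 in the 6 blood libraries, so the tissues overlapped although the haemoglobin share itself differed by up to a factor of 420. The highest of the 12 values was 1.36 times the lowest. That was the smallest such ratio of 16759 features with counts in every library, the 4 haemoglobin genes left out. The median of these ratios was 1000.5. Slc4a1 had 432 to 1226 counts per 10000 haemoglobin counts in spleen and 3.52 to 6.35 in blood. Car2 had 243 to 996 in spleen and 0.981 to 2.64 in blood. For Klf1 the ranges were 21.9 to 90.6 in spleen and 0.00853 to 0.0395 in blood. Such a gap between tissues is usual on this scale, since any gene of equal CPM in both tissues lies higher in spleen when divided by a haemoglobin count that is lower there, and 75.2% of 21812 features with at least 50 counts in all had all 6 splenic libraries above all 6 blood libraries. The overlap of Alas2 was therefore the less common outcome, shared by 24.7% of features.

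**Figure D2:**
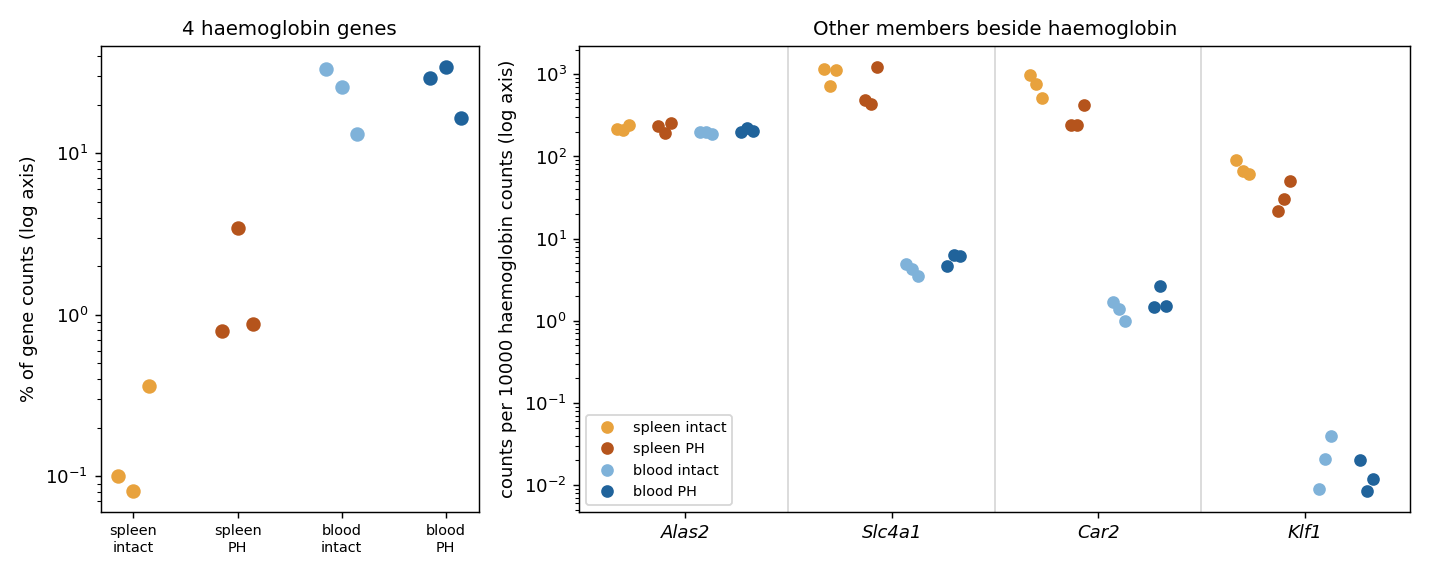
Left, share of gene counts taken by the 4 haemoglobin genes in each library, and right, counts of Alas2, Slc4a1, Car2 and Klf1 per 10000 haemoglobin counts (log axes), points coloured by group with replicates 1 to 3 from left to right. Alas2 stays between 190 and 258 in all 12 libraries, while Slc4a1, Car2 and Klf1 lie higher in all splenic libraries than in any blood library.

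Within the spleen the same division gave the following values in the 2 states. Alas2 per 10000 haemoglobin counts was 211 to 244 in intact spleen and 194 to 258 after resection, and Slc4a1 was 718 to 1158 and 432 to 1226, so both overlapped. Car2 went from 521 to 996 in intact spleen to between 243 and 423 after resection. Klf1 went from 60.9 to 90.6 to between 21.9 and 49.8. For Car2 and Klf1 every PH library was lower than every intact one on this scale, although their CPM were higher on average. That position is the usual one, since 76.3% of the 21812 features had all 3 PH libraries below all 3 intact ones on this scale and 23.4% overlapped, the haemoglobin count in the divisor being higher after resection. No test was made of these ratios.

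The first comparison asked how the splenic cells differed after resection. All 8 genes were higher on average, with log2 fold changes between 2.14 and 3.42, and 0 of the 8 passed the threshold, which was a Benjamini-Hochberg adjusted p under 0.05 in edgeR's quasi-likelihood test together with a log2 fold change beyond 1 in either direction. Of all features 1.38% were called. Here and below, ± is the SE for a log2 fold change and the SD for CPM, with n = 3 libraries a group. The log2 fold change was 3.33 ± 0.84 (SE, n = 3 against 3, edgeR adjusted p = 0.0704) for Hba-a1, 3.42 ± 0.81 (edgeR adjusted p = 0.0608) for Hbb-bs and 3.23 ± 0.81 (edgeR adjusted p = 0.0701) for Alas2. It was smaller for Slc4a1 (2.46 ± 0.83, edgeR adjusted p = 0.133), Klf1 (2.33 ± 0.69, edgeR adjusted p = 0.102) and Car2 (2.14 ± 0.79, edgeR adjusted p = 0.161). The libraries of the states did not overlap for 7 of the 8 genes, Klf1 being the exception, where 17.4% of all features had every library after resection above every intact one. All 8 had an unadjusted p under 0.05, as did 4182 of 20135 features, and the 8 genes moved together between libraries, so they are not 8 separate pieces of evidence.

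These calls depended on the method. DESeq2 on the same counts called 8 of the 8, with adjusted p-values from 6.21e-05 for Hbb-bs to 0.0341 for Car2, and called 1556 of all features where edgeR called 277. With a minimum of 10 counts in every library, or without intact blood replicate 3, edgeR called 5, namely the 4 haemoglobin genes and Alas2. Without spleen PH replicate 2 the log2 fold changes of the 8 genes were between 1.41 and 2.41, and without intact spleen replicate 3 between 2.67 and 4.47.

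Most of the other erythroid genes had positive log2 fold changes in spleen after resection, and few were called. For the counts of this comparison here and below, 4182 of 20135 features had an unadjusted p under 0.05 and DESeq2 called 1556. Of 13 genes of haem synthesis 13 were above 0 in log2 fold change, the median being 1.18 against 0.05 over all features, and 1 was called, Tmem14c, a transporter of porphyrin precursors in mitochondria (1.18 ± 0.25, edgeR adjusted p = 0.0484). Of 17 genes of the red cell membrane and its cytoskeleton 0 were called, 15 had an unadjusted p under 0.05 and the median was 2.36. Of 11 genes of the red cell cytosol and maturation 0 were called and 9 had an unadjusted p under 0.05, with Car1, an erythroid carbonic anhydrase, at 11.4 to 32.3 CPM before and 30.8 to 194 CPM after. DESeq2 called 6, 14 and 7 genes of these 3 lists.

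Regulators were divided, whereas the progenitor genes had positive values in 8 of 8. Gata1, the central erythroid factor, was at 5.49, 3.15 and 12.8 CPM in intact spleen and 11.4, 67.1 and 38.1 CPM after resection, which overlap (2.44 ± 0.71, edgeR adjusted p = 0.0980). Of 9 transcription factors 0 were called, and 6 had a positive log2 fold change, each with an unadjusted p under 0.05. The other 3, given here after their values were seen, were Lmo2 (-0.05 ± 0.46), Ldb1 (-0.03 ± 0.15) and Bcl11a (-0.91 ± 0.59, edgeR adjusted p = 0.420). Bcl11a, a repressor of embryonic and fetal-type globin genes, was at 168 to 185 CPM in intact spleen and 39.0 to 126 CPM after resection, which do not overlap. Bcl11a stood far above Gata1 in intact spleen, and which cells carried its RNA was not tested. The same holds where Bcl11a counts among the factors lower in blood below. Of 8 progenitor and iron uptake genes 0 were called and 6 had an unadjusted p under 0.05. Epor, the erythropoietin receptor, went from 3.81 to 11.3 CPM to between 15.8 and 50.7 CPM (2.09 ± 0.94, edgeR adjusted p = 0.243). Tfrc, the transferrin receptor, went from 77.5 to 123 CPM to between 171 and 471 CPM (1.64 ± 0.48, edgeR adjusted p = 0.0985). Kit, the stem cell factor receptor of early progenitors, differed little, at 24.3 ± 1.8 and 27.5 ± 5.9 CPM (SD, n = 3). DESeq2 called 6 genes in each of these lists. Proliferation genes had positive values in 12 of 12, with 0 called by edgeR or DESeq2 and 1 at an unadjusted p under 0.05. Mki67 was at 52.9 to 161 CPM in intact spleen and 163 to 446 CPM after resection. Without intact blood replicate 3, edgeR called 2 haem synthesis, 1 membrane, 2 cytosol, 1 transcription factor, 4 progenitor and 5 proliferation genes in this comparison.

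**Figure D3:**
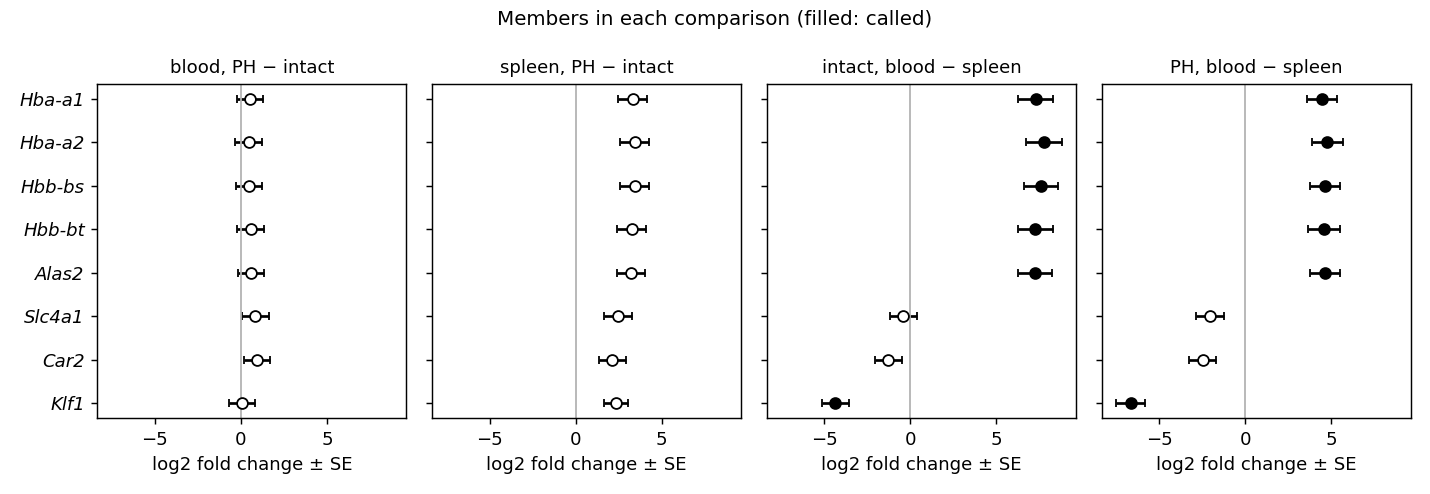
Log2 fold change with its standard error (edgeR, n = 3 libraries a group) of the 8 erythroid genes in the resection comparisons of blood and spleen and in the comparisons of blood with spleen, with filled points for called genes. The 8 values of resection in spleen lie between 2.14 and 3.42 and are open, and 6 of 8 points are filled in each comparison of the tissues.

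Markers of other cells also differed between the splenic states, and their part in the results above was not tested. The summed level of 13 red pulp macrophage and iron recycling genes was 1730 to 2545 CPM in intact spleen and 3382 to 7012 CPM after resection, with 1 called, the haem-degrading enzyme Hmox1 (311 ± 119 and 1079 ± 318 CPM, SD, n = 3). Spic, the transcription factor of red pulp macrophages, stood at 45.4 ± 12.2 and 98.2 ± 25.9 CPM and was not called. The 8 neutrophil genes summed to 787 to 1747 CPM before and 4971 to 14195 CPM after, with 2 called higher (Ltf and Ly6g). For 4 plasma cell genes the sums were 2188 to 3039 and 4017 to 4700 CPM and for 6 mast cell, eosinophil and basophil genes 8.29 to 22.6 and 19.4 to 25.9 CPM, with 0 called and 2 and 0 at an unadjusted p under 0.05 (DESeq2 called 0 of both). The 5 B cell genes went from 3910 to 4447 CPM to between 1071 and 3315 CPM, the 5 T cell genes from 96.8 to 182 CPM to between 41.7 and 55.6 CPM and the 4 NK cell genes from 45.1 to 101 CPM to between 2.63 and 17.0 CPM. Of these lymphoid genes edgeR called 0, with 2, 5 and 4 at an unadjusted p under 0.05, and DESeq2 called 1, 3 and 4. The 8 monocyte genes were at 2575 to 2831 CPM before and 2188 to 3755 CPM after, with 0 called, 4 at an unadjusted p under 0.05 and 1 called by DESeq2. No marker of these lists was at 0 throughout a group.

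In blood, resection was compared in the same way. Of the 8 genes 0 were called by edgeR, 0 had an unadjusted p under 0.05 and DESeq2 called 0, in a comparison in which 13.9% of all features were called. Log2 fold changes were between 0.05 for Klf1 and 0.95 for Car2, with standard errors from 0.74 to 0.79, so a change of the size of these errors could not be resolved. Hba-a1 stood at 86077 ± 44032 CPM before and 123928 ± 49201 CPM after (0.53 ± 0.77, edgeR adjusted p = 0.669) and Alas2 at 5199 ± 2767 and 7831 ± 3609 CPM (0.59 ± 0.75, edgeR adjusted p = 0.615). The libraries of the states overlapped for all 8 genes, where 38.4% of all features did not overlap. The sign for Klf1 was negative without replicate 1 of either blood group.

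Among the other erythroid genes in blood, 2 were called, both higher after resection. Over all 20135 features edgeR called 2801, 7233 had an unadjusted p under 0.05 and DESeq2 called 3698. Blvrb, a biliverdin reductase of the red cell cytosol, had a log2 fold change of 1.94 ± 0.55 (edgeR adjusted p = 0.0313), and its call was lost without intact blood replicate 3. Kit rose from 4.11 ± 0.82 to 11.2 ± 4.5 CPM (1.45 ± 0.29, edgeR adjusted p = 0.00785). Lower values without a call were seen for Tfrc (120 ± 80.9 and 45.7 ± 6.1 CPM) and Epor (1.19 ± 1.29 and 0.128 ± 0.143 CPM, on 0 to 10 counts after resection). The highest Tfrc and Epor values of intact blood, 213 and 2.66 CPM, were those of replicate 3, the library with high Mki67. Over the lists, edgeR called 0 of 13 haem synthesis, 0 of 17 membrane and 0 of 9 transcription factor genes, with 2, 1 and 4 at an unadjusted p under 0.05, and DESeq2 called 1, 1 and 3. Of 12 proliferation genes 0 were called, 1 had an unadjusted p under 0.05 and DESeq2 called 1. Outside the erythroid genes, 9 of 13 red pulp macrophage and iron recycling genes were higher, with Hmox1 going from 43.5 ± 8.7 to 697 ± 121 CPM, Slc40a1, the iron exporter, from 5.24 ± 4.23 to 36.5 ± 27.2 CPM and Spic from 0.874 ± 0.543 to 3.98 ± 2.25 CPM. All 8 neutrophil genes were higher too, their sum going from 101 to 298 CPM to between 3513 and 18617 CPM.

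The difference of the resection effect between blood and spleen was fitted as an interaction. It was negative for all 8 genes, meaning a smaller effect in blood, from -2.98 ± 1.12 for Hba-a2 to -1.19 ± 1.07 for Car2. By edgeR, 0 of the 8 genes and 0.283% of all features passed the threshold. Before adjustment, the edgeR p lay below 0.05 for 6 of the 8 and for 3484 of the 20135 features. DESeq2 called 1 of the 8, Hbb-bs (-2.92 ± 1.00, DESeq2 adjusted p = 0.0448), and 1133 of all features. A difference of the effect between the tissues was therefore not established for 7 of the 8 genes by either tool. For Hbb-bs the tools differed (edgeR adjusted p = 0.221), so it was not established there either.

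The comparison of blood with spleen in intact mice separated the 8 genes clearly. The 4 haemoglobin genes and Alas2 were higher in blood and Klf1 was lower, where 7.35% of all features were called, 3.86% higher and 3.49% lower in blood. The log2 fold change was 7.29 ± 1.01 for Hba-a1 (edgeR adjusted p = 0.00351), 7.76 ± 1.04 for Hba-a2 (0.00289), 7.61 ± 0.99 for Hbb-bs (0.00264), 7.27 ± 1.03 for Hbb-bt (0.00389) and 7.26 ± 0.98 for Alas2 (0.00297). Klf1 had -4.37 ± 0.78 (edgeR adjusted p = 0.0104). Slc4a1 had -0.41 ± 0.79 (edgeR adjusted p = 0.800) and Car2 -1.27 ± 0.77 (edgeR adjusted p = 0.339), both with overlapping libraries. Without intact spleen replicate 3, the 5 higher genes had log2 fold changes of 8.35 to 8.91, Klf1 -3.52 and Slc4a1 0.87. Requiring 10 counts in every library left 5 calls, because Klf1 did not pass that filter.

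After resection the same genes were called with smaller distances for haemoglobin. Here 13.2% of all features were called, 6.28% higher and 6.87% lower in blood. The 4 haemoglobin genes and Alas2 had log2 fold changes of 4.48 to 4.78 with standard errors of 0.86 to 0.91 and edgeR adjusted p-values of 0.00634 to 0.00840. Klf1 stood at 49.0 ± 40.3 CPM in spleen and 0.486 ± 0.258 CPM in blood (-6.65 ± 0.87, edgeR adjusted p = 0.00140). Slc4a1 (-2.03 ± 0.81, edgeR adjusted p = 0.110) and Car2 (-2.46 ± 0.80, edgeR adjusted p = 0.0566) were lower in every blood library than in any splenic one but were not called, and 25.1% of all features were placed so. DESeq2 called both (adjusted p = 0.0420 and 0.00816), and edgeR called Car2 without intact blood replicate 3 (-2.35). Without spleen PH replicate 2 the haemoglobin genes and Alas2 had values of 5.55 to 5.97, Klf1 -5.68 and Car2 -1.62.

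**Figure D4:**
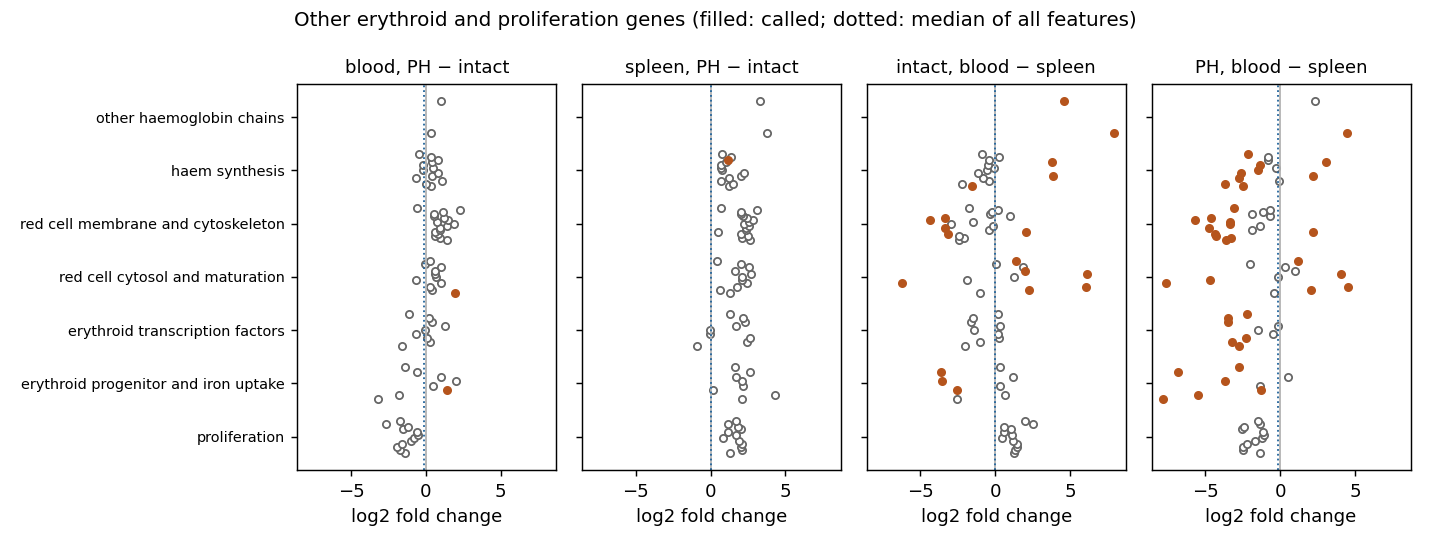
Log2 fold change (edgeR) of each tested gene of the erythroid and proliferation lists in the same comparisons, with filled points for called genes and a dotted line at the median of all features. After resection, 6 of 9 transcription factors and 6 of 8 progenitor genes are called lower in blood than in spleen, while the red cell cytosol list has called genes on both sides.

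The other erythroid genes divided in the same way between the tissues. On the side of blood were Fech, which inserts iron into haem (log2 fold change 3.84 ± 0.66 in intact mice and 2.17 ± 0.61 after resection), the mitochondrial carrier Slc25a39 (3.76 ± 0.47 and 3.09 ± 0.46) and Epb41, the protein that ties spectrin to actin (2.04 ± 0.32 and 2.17 ± 0.32). So were Bpgm, which makes bisphosphoglycerate (6.08 ± 0.69 and 4.56 ± 0.64), and Bnip3l, which removes mitochondria from reticulocytes (2.25 ± 0.40 and 2.06 ± 0.40). Each was called in both states. Hbq1a, the theta-type globin gene, was at 7.57 ± 4.12 CPM in intact blood and at 0.0282 ± 0.0125 CPM in intact spleen, where it did not exceed 3 counts in a library, and its near copy Hbq1b was called only in intact mice.

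Other genes lay on the side of spleen. Car1 was at 102 ± 83.6 CPM in spleen after resection and 0.508 ± 0.183 CPM in blood (-7.65 ± 0.92, edgeR adjusted p = 0.000967), and the gap was also called in intact mice (-6.21 ± 0.89). The blood group antigens Rhag (-4.36 ± 0.83 in intact mice, -5.71 ± 0.85 after resection) and Ermap (-3.36 ± 0.74 and -4.76 ± 0.78) and the receptor Tfr2 (-3.61 ± 0.66 and -6.80 ± 0.76) were called in both states. In blood Tfr2 had at most 13 counts in an intact and 7 in a PH library, and Car1 at most 15 and 22. The size of the gaps for Tfr2 and Car1 therefore rests on few counts in blood. Kit was lower in blood as well (-2.57 ± 0.30 and -1.30 ± 0.29). Epor was called after resection only, at 29.5 ± 18.6 CPM in spleen and 0.128 ± 0.143 CPM in blood (-7.79 ± 1.27, edgeR adjusted p = 0.00360). Gata1 likewise was at 38.8 ± 27.9 CPM in spleen and 4.26 ± 0.67 CPM in blood after resection (-3.19 ± 0.74, edgeR adjusted p = 0.0160), against 7.15 ± 5.03 and 3.48 ± 1.89 CPM in intact mice, which was not called. Tfrc was called after resection (-2.73 ± 0.50) and had 0.31 ± 0.47 in intact mice.

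Counted by list, the calls between the tissues in each state were as follows. Over all features, 3.49% were called lower in blood in intact mice and 6.87% after resection, and 3.86% and 6.28% higher. Of 9 transcription factors 0 were called in intact mice, with 3 lower at an unadjusted p under 0.05 and 2 called by DESeq2, and 6 were called lower in blood after resection, with a median log2 fold change of -2.26 against -0.14 over all features. Of 8 progenitor and iron uptake genes 3 and then 6 were called lower. The membrane list had 1 gene higher and 4 lower in intact mice, then 1 higher and 10 lower. Haem synthesis had 2 higher and 1 lower, then 2 higher and 7 lower, among them Cpox and Ppox of the later steps. The cytosol list had 5 higher and 1 lower, then 4 higher and 2 lower. Whether these counts differ between the states was tested gene by gene in the interaction, where edgeR called 0 genes of the 5 lists. For haem synthesis, membrane, cytosol, transcription factor and progenitor genes, 4, 0, 1, 3 and 5 had an unadjusted p under 0.05. Of those 5 progenitor genes 1 had a positive and 4 a negative value. DESeq2 called 1, 0, 0, 1 and 5 genes of these lists. Over all 20135 features, 3484 had an unadjusted p under 0.05 and DESeq2 called 1133. Of 12 proliferation genes 0 were called between the tissues in either state, with 1 and 5 at an unadjusted p under 0.05 and 1 and 2 called by DESeq2, but without intact blood replicate 3 edgeR called 9 of them after resection.

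Genes of platelets, which like red cells circulate without a nucleus, were also higher in blood. Of all features, 3.86% were called higher in blood in intact mice and 6.28% after resection, and 3.49% and 6.87% lower. Of 9 platelet and megakaryocyte genes 8 were called higher in blood in intact mice and 9 after resection, with a summed level of 17.7 to 36.5 CPM over the splenic libraries and 111 to 949 CPM over the blood libraries. Pf4, a platelet chemokine, was at 1.84 ± 1.30 CPM intact and 3.11 ± 2.46 CPM after PH in spleen, and 45.6 ± 26.3 CPM intact and 597 ± 54.1 CPM after PH in blood. Pf4 was the 1 gene of the 9 called for resection in blood (3.71 ± 0.71, edgeR adjusted p = 0.00656). For resection in spleen 0 of the 9 were called by edgeR or DESeq2, with 2 higher and 1 lower at an unadjusted p under 0.05. Red pulp macrophage genes ran the other way, with 5 of 13 lower in blood in each state. In intact mice 4 of 8 neutrophil, 2 of 4 plasma cell and 1 of 6 mast cell, eosinophil and basophil genes were lower and 4 of 5 T cell and 1 of 8 monocyte genes higher in blood. The part of these cells in the erythroid values was not tested.

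The same ratio was taken for 60 other erythroid genes with at least 50 counts in all. Of those 60 genes 58 had all 6 splenic libraries above all 6 blood libraries on that scale, 2 overlapped and 0 were higher in blood, against 75.2% and 24.7% of all features in the first 2 positions. The 2 were Hbq1a (0.146 to 0.324 counts per 10000 haemoglobin counts in spleen and 0.238 to 0.303 in blood) and Bpgm (30.2 to 205 and 30.5 to 42.0). Hbq1a rested on 1 or 2 counts a library in intact spleen, and its near copy Hbq1b did not overlap (2.59 to 8.99 and 0.518 to 0.972). The overlap of Bpgm rested on spleen PH replicate 2, the only splenic library not above all blood libraries. At the other end Car1 had 44.2 to 177 in spleen and 0.00538 to 0.0176 in blood, and Gata1 16.3 to 68.8 and 0.0893 to 0.163.

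A search for genes with the most similar pattern gave 2 separate sets. Over the 12 libraries and 12741 features with a symbol and a mean of at least 1 CPM, the 5 highest Pearson correlations of log2 CPM with the summed haemoglobin genes included those of Hbq1a (r = 0.989), Bpgm (0.985), Ube2l6 (0.982) and Gm10371 (0.981), and these 4 were also among the 5 highest for Alas2. Within groups, after each group was centred, r was 0.863, 0.900, 0.871 and 0.954 with haemoglobin. For Klf1 the leading genes were Tfr2 (0.987), Cldn13 (0.985), Atp1b2 (0.983), Slc6a20a (0.982) and Arhgef40 (0.979), with centred values of 0.864, 0.931, 0.871, 0.884 and 0.794. The 12 points share their 4 groups and library sizes, so these values describe likeness and carry no p. Cldn13 averaged 43.5 ± 37.5 CPM in spleen after resection, 6.81 ± 5.28 in intact spleen and 0.161 ± 0.056 and 0.437 ± 0.237 in intact and PH blood.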

How the data were processed

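The 8 genes, the lists and the tests were chosen with earlier results of these data known. Estimated counts, not normalized, were deposited by the authors for each library (67088 rows); their processing notes name STAR and GRCm39, and the counting tool is not given in the sources used here. The methods name an Illumina HiSeq instrument, the labels a stranded DNBSEQ library. Unassigned transcripts (1.75% to 4.33% of a library) were left out, 25340 of 40274 RefSeq accessions were matched to symbols through the GRCm38.p6 RefSeq table, rows were summed per gene and rounded to whole numbers. Features kept by filterByExpr were fitted in edgeR 4.0.16 (R 4.3.3; TMM, robust quasi-likelihood, 12 libraries, 4 groups, no covariate). Standard errors are the absolute log2 fold change over the square root of F. Alternatives were DESeq2 1.42.0, RLE factors, scaling without haemoglobin genes, 2 other count filters, a replicate block, fits of the compared groups alone, rows as deposited, no fold limit and each library left out. Lengths are of the longest GENCODE vM21 transcript. Named were the 8 genes, from each list and comparison the called genes (the 4 with the smallest p where more), a fixed set of defining genes, and the 5 genes most like haemoglobin, Alas2 and Klf1; some results under these rules are not reported here. Ahsp, Hbb-b1 and Hbb-b2 were on the lists without a row, and 2 of 6 other haemoglobin chains passed the filter. Replicates were kept apart, their chi-square per degree of freedom being 20.2 to 599, and since the labels do not say whether pools shared a day or surgery, p-values measure the spread between these libraries only. Limits of counting cover counting error only. The test was checked on simulated counts.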

Additional observations from a re-analysis of the deposited data

How the results depend on the processing

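For resection in spleen the count of the 8 genes called was 0, and it was 8 with DESeq2 and 5 with at least 10 counts in every library. Leaving out 1 library gave 0 to 5, with 5 without intact blood replicate 3. DESeq2 called 1 gene for the difference of the resection effect between tissues. The cause of these shifts was not tested. The stricter filter left fewer features in the fit (13564 in place of 20135), and the part of that number was not tested either. The other counts stayed within 1.5 times of those reported, in 100 of 104 repeats over the 5 comparisons. Of the repeated log2 fold changes 800 kept their side of the threshold and their direction, 23 passed the threshold only in the alternative and 4 reversed. The reversed ones were Klf1 for resection in blood, at -0.42 without blood PH replicate 1 and -0.07 without intact blood replicate 1 (0.05 reported, range -0.42 to 0.40 over the libraries left out), and Slc4a1 for blood against spleen in intact mice, at 0.87 without intact spleen replicate 3 and 0.10 without intact blood replicate 3 (-0.41 reported, range -0.90 to 0.87). None of these 4 was past the threshold. Scaling without haemoglobin genes or with RLE factors changed no call of the 8 genes. With the replicate number as a block, the counts called were 0, 0, 6, 6 and 0 for resection in blood, resection in spleen, intact tissues, tissues after resection and the difference of effects, the same as without it. Deviations of samples with the same number correlated weakly (from -0.05 to 0.19, over 0.1 in 2 of 18 pairs). With different numbers the range was -0.19 to 0.09, with 0 of 36 pairs over 0.1. Both pairs over 0.1 joined spleen PH with blood PH (0.131 for replicate 2, 0.189 for replicate 3, and 0.042 for replicate 1). Whether these pools shared mice was not tested, and the numbers were not taken to pair the samples.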
